A study of Mus musculus with 12 samples.

Results

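The nuclear factor I (NFI) family is described here in the external granule layer of the mouse cerebellum of mice with a conditional knockout of the transcriptional regulator SnoN and of their controls. The family has 4 genes in the mouse, Nfia, Nfib, Nfic and Nfix, and all 4 of the 4 were found by symbol among the 53379 gene rows of the count tables. All 4 passed the filter on low counts, which left 13442 genes. The knockout (KO) libraries came from C57BL/6 mice with a conditional knockout of SnoN, the product of Skil, and the wild-type (WT) libraries from C57BL/6 control littermates. In both groups the layer was cut by laser capture from the central lobules at postnatal day 6 and its total RNA was sequenced in bulk. There were 6 libraries in each group by title, and 1 of each, KO4 and WT2, had been marked as an outlier by the submitters from a robust principal component analysis. The comparisons therefore used KO2, KO3, KO5, KO6 and KO8 against WT1, WT3, WT5, WT6 and WT7, and KO4 and WT2 are given beside them. KO2 is a knockout by its title, while its genotype tag says wild type. No label names the Cre driver, the cells in which it acts or the deleted part of Skil. The family was chosen by the measured KO and WT levels of its members in these libraries and then taken whole by name, so the members' KO and WT values are given as a description, and no test result is drawn from them.

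NFI proteins are transcription factors that bind DNA as dimers through a conserved amino-terminal domain and activate or repress genes through a more variable carboxy-terminal part. In the developing cerebellum, NFIA, NFIB and NFIX are known to act in granule neurons as they leave the cell cycle, extend axons, migrate inward and turn on late genes such as Gabra6. The same factors are known to promote the formation of astrocytes, and Bergmann glia, whose fibres cross the external granule layer, express them as well. Ski, the closest relative of SnoN, has been reported to bind NFI proteins.

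The coding sequences of the family are close to each other in letters but differ in base composition, a property by which the fold changes of all genes are sorted further on. The 60 coding bases below, near the start of the coding region, are the in-frame stretch of that length with the most bases shared by all 4 genes (GENCODE M21 transcripts, GRCm38, 5′ to 3′, coding strand), and capitals mark the 12 bases that differ between at least 2 members.
Nfia: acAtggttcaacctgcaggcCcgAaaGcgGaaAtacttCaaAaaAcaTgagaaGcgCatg
Nfib: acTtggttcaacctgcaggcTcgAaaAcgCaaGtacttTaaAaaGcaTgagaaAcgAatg
Nfic: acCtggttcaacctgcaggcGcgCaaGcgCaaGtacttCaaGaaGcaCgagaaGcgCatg
Nfix: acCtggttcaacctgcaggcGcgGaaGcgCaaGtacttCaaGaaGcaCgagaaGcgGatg
Of the 12 differing bases, G or C stood at 6 in Nfia, at 3 in Nfib and at 12 in both Nfic and Nfix. Over whole coding regions 63.9% (Nfib and Nfic) to 70.9% (Nfia and Nfix) of aligned bases were identical. GC content of the longest transcript was 42.7% for Nfia and 43.3% for Nfib, against 57.5% for Nfic and 57.1% for Nfix. The coding regions alone had a GC content of 52.7% in Nfia, 49.4% in Nfib, 62.8% in Nfic and 58.8% in Nfix. By the longest transcript, the measure used below, the family falls into an AT-rich pair, Nfia and Nfib, both on chromosome 4. The other pair, Nfic on chromosome 10 and Nfix on chromosome 8, is GC-rich.

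The genes also differ in size. Nfia (ENSMUSG00000028565.18) lies on chromosome 4 at 97772734 to 98118874, plus strand, and Nfib (ENSMUSG00000008575.17) at 82290173 to 82705750, minus strand. Nfic (ENSMUSG00000055053.18) lies on chromosome 10 at 81396186 to 81455635 and Nfix (ENSMUSG00000001911.16) on chromosome 8 at 84699876 to 84800344, both on the minus strand (GENCODE M21, GRCm38). Their joined exons cover 10891, 14957, 6630 and 7351 bases for Nfia, Nfib, Nfic and Nfix. Each overlaps annotated genes on the opposite strand, and the library kit does not mark strand. Nfia shares 4 exon bases with E130114P18Rik and Nfib none with any, while Nfic shares 72 with Gm16104 and Nfix 137 with G430095P16Rik and 4 with Lyl1. Gm16104 had 5 to 16 reads in KO and 9 to 25 in WT, and G430095P16Rik 0 to 2 in KO and 0 to 4 in WT.

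The libraries held between 7520076 and 15083086 gene counts, and 18216 to 20037 genes had at least 1 count. Whether libraries of a group stem from different mice is not stated, and the p-values below reflect variation among libraries, part of which may be technical. Skil itself was at 30.7 ± 6.39 CPM in KO and 49.9 ± 7.98 CPM in WT (TMM-scaled counts per 1e+06; SD, n = 5 each). All 5 KO libraries lay below all 5 WT libraries (two-sided exact permutation p = 0.00794, the smallest that 5 against 5 can give), but Skil did not pass across all genes (edgeR log2 fold change -0.70, SE 0.15, adjusted p = 0.124). KO4 had 14.01 CPM and WT2 76.5 CPM of Skil. With the GC trend described below removed, Skil was at -0.93 (SE 0.11, adjusted p = 0.00105). All 12 granule precursor markers passed the filter, for example Atoh1, which defines the precursors, at 95.8 ± 10.8 CPM in KO and 92.2 ± 16.7 CPM in WT (SD, n = 5 each). Of 14 maturing neuron markers 13 passed. Calb2 was low among them, at 2.23 CPM in KO and 2.43 CPM in WT. Cbln3 did not pass, at 0.694 CPM in KO and 0.961 CPM in WT.

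Nfib was by far the most abundant family member per unit of length. Its level was 763 ± 158 TPM in KO and 594 ± 111 TPM in WT (transcripts per 1e+06, counts divided by the joined exon length; SD, n = 5 each). By mean TPM it ranked 146th in KO and 201st in WT among the 13442 genes. Nfia came next, at 207 ± 48.3 TPM in KO and 130 ± 16.5 TPM in WT. Nfix had 25.0 ± 7.05 TPM in KO and 41.5 ± 6.30 TPM in WT, and Nfic, better known for its part in tooth root formation, had 11.6 ± 4.49 TPM in KO and 16.8 ± 2.59 TPM in WT. The order Nfib, Nfia, Nfix, Nfic held in all 12 libraries. The closest neighbours were Nfix and Nfic, whose TPM ranges over the KO libraries overlapped (17.5 to 35.6 against 6.55 to 18.8), although Nfix was 1.44 to 2.69 times Nfic within each of the 12 libraries. Nfib was 2.80 to 5.13 times Nfia within each library. With the longest transcript as the length the order was the same in all 12.

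**Figure D1:**
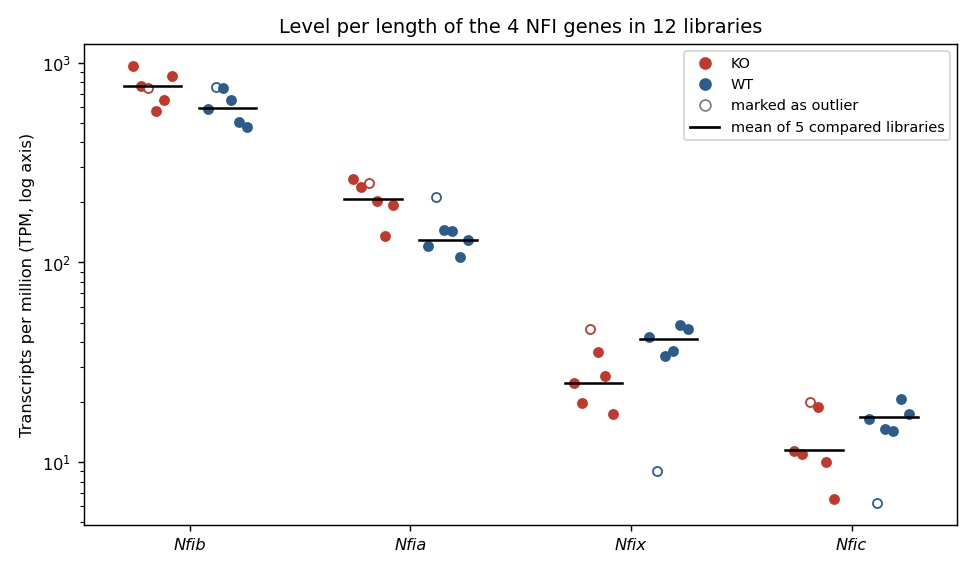
TPM (log axis) of the 4 NFI genes in each of 12 libraries, KO left of WT for each gene; open circles are the libraries marked as outliers and black lines the means of the 5 compared libraries. Nfib lies highest, at a mean of 763 TPM in KO and 594 TPM in WT, and Nfic lowest, at 11.6 TPM in KO and 16.8 TPM in WT.

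Between the groups the AT-rich and the GC-rich members lay on opposite sides. Nfia and Nfib had higher means in KO and Nfix and Nfic had lower means in KO. In bulk RNA a different number of cells of a type and a different amount of RNA per cell cannot be told apart.

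Nfia, which in mouse granule neurons is known to act in axon growth and the timing of maturation, had 1115 CPM in KO2, 1050 CPM in KO3, 828 CPM in KO5, 597 CPM in KO6 and 901 CPM in KO8. In WT it had 491 CPM in WT1, 612 CPM in WT3, 616 CPM in WT5, 410 CPM in WT6 and 531 CPM in WT7. The 4 KO libraries other than KO6 lay above every WT library, and KO6 lay below WT3 and WT5, so the groups overlapped by 1 library. The means were 898 ± 204 CPM in KO and 532 ± 86.5 CPM in WT (SD, n = 5 each), a ratio of 1.69 and a log2 fold change of 0.76 (SE 0.15).

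Nfib, which mice are known to need for the formation of the pontine nuclei, the source of mossy fibres to granule neurons, had 5634 CPM in KO2, 4619 CPM in KO3, 3183 CPM in KO5, 3941 CPM in KO6 and 5515 CPM in KO8. In WT it had 3265 CPM in WT1, 4308 CPM in WT3, 3830 CPM in WT5, 2689 CPM in WT6 and 2667 CPM in WT7. KO2, KO3 and KO8 lay above every WT library, whereas KO5 and KO6 lay within the WT range. The means were 4579 ± 1042 CPM in KO and 3352 ± 718 CPM in WT (SD, n = 5 each), a ratio of 1.37 and a log2 fold change of 0.45 (SE 0.17). Nfib varied about as much within WT (coefficient of variation 21.4%) as within KO (22.8%).

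Nfix, whose loss in mice is known to leave neural precursors dividing for longer, had 71.2 CPM in KO2, 58.9 CPM in KO3, 97.4 CPM in KO5, 80.4 CPM in KO6 and 54.98 CPM in KO8. In WT it had 115 CPM in WT1, 96.6 CPM in WT3, 105 CPM in WT5, 127 CPM in WT6 and 128 CPM in WT7. Only KO5 reached the WT range, just above WT3. The means were 72.6 ± 17.2 CPM in KO and 114 ± 13.7 CPM in WT (SD, n = 5 each), a ratio of 0.635 and a log2 fold change of -0.65 (SE 0.14).

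Nfic had 29.4 CPM in KO2, 29.4 CPM in KO3, 46.5 CPM in KO5, 26.9 CPM in KO6 and 18.6 CPM in KO8. In WT it had 40.7 CPM in WT1, 37.5 CPM in WT3, 37.5 CPM in WT5, 49.0 CPM in WT6 and 43.4 CPM in WT7. The 4 KO libraries other than KO5 lay below every WT library, and KO5 lay above all of them but WT6. The means were 30.2 ± 10.2 CPM in KO and 41.6 ± 4.80 CPM in WT (SD, n = 5 each), a ratio of 0.725 and a log2 fold change of -0.46 (SE 0.18). Its counts were the lowest of the family, 258 to 522 reads in the KO libraries and 389 to 663 reads in the WT libraries.

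**Figure D2:**
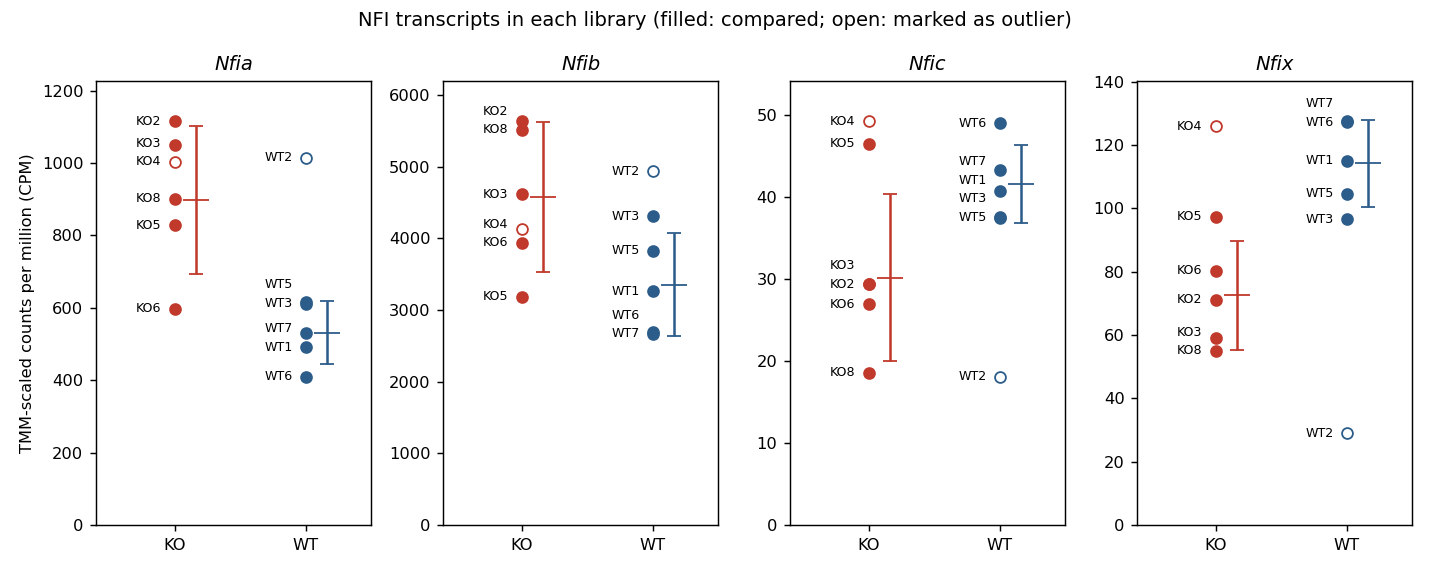
TMM-scaled CPM of Nfia, Nfib, Nfic and Nfix in each library, KO left of WT; filled circles are the compared libraries, open circles KO4 and WT2, which were marked as outliers, and bars the mean and SD of the filled ones (n = 5 each). KO6 for Nfia, KO5 and KO6 for Nfib, and KO5 for Nfic and Nfix are the compared KO libraries inside the range of the compared WT libraries, KO4 lies in that range for Nfib and Nfix, and WT2 lies among or beyond the KO values for all 4 genes.

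Of the 4 members 0 were called at the adjusted threshold of 0.05 in edgeR, where 0.0223% of genes were called (3 of 13442), 0.0149% as higher and 0.00744% as lower in KO. The groups were fully separated for 0 of the 4, against 2.35% of all genes, 1.04% with KO above WT and 1.31% with KO below. Since the family was taken up with this contrast known, nothing is read from these counts. For the other gene lists described below, the background at an unadjusted p under 0.05 was 21.8% of all genes, 11.8% higher and 9.97% lower in KO. The share of tested genes called moved with the setting. With DESeq2 it was 4.35%, or 449 of the 10314 genes to which DESeq2 gave an adjusted p. It was 3.49% without a filter on low counts, 22.9% without KO5 and 0.0441% without KO6. Of the 4 members, 2 were called with DESeq2, 4 without that filter, 4 without KO5 and 1 without KO6. For the reason given above, nothing is read from these counts either.

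The 2 libraries marked as outliers did not follow the other 10 in Nfic and Nfix. Nfix was at 126 CPM in KO4 and 29.0 CPM in WT2, and Nfic at 49.2 CPM in KO4 and 18.1 CPM in WT2, in both cases the opposite order to the group means. Nfib was also lower in KO4, at 4126 CPM, than in WT2, at 4935 CPM. Nfia was nearly level, at 1003 CPM in KO4 and 1015 CPM in WT2. With both included, in fits to 12 libraries, the log2 fold changes kept their signs and were 0.58 (SE 0.20) for Nfia, 0.32 (SE 0.18) for Nfib, -0.18 (SE 0.24) for Nfic and -0.30 (SE 0.28) for Nfix. With KO2 counted as WT, as its genotype tag has it, Nfia had a log2 fold change of 0.43 (SE 0.23) and Nfib of 0.21 (SE 0.21). In the same fit Nfic was at -0.38 (SE 0.205) and Nfix at -0.55 (SE 0.18).

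The difference between the groups was graded with GC content over the whole transcriptome, in the direction of the split within the family. Of 2764 genes with a transcript GC content from 40% to 45%, the range of Nfia and Nfib, 78.4% had a higher fitted level in KO and the median log2 fold change was 0.185. Of 2349 genes from 55% to 60%, the range of Nfic and Nfix, 24.6% had a higher fitted level in KO and the median was -0.175. The median over all 13442 genes was 0.001.

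The grading differed from library to library. The trend of log2 CPM on GC content, taken relative to the mean of the 12 libraries, was read at the GC content of Nfia. There KO2 stood at 0.17, KO3 at 0.17, KO8 at 0.14, KO6 at -0.003 and KO5 at -0.16 (log2 units). WT3 stood at -0.02, WT5 at -0.10, WT1 and WT7 at -0.11 and WT6 at -0.21. KO5 therefore lay within the WT range, KO6 just above it, and the other 3 KO libraries clearly above. The marked libraries had -0.15 in KO4 and 0.36 in WT2, the highest of the 12. At the GC content of Nfix the trend had the reverse sign in every library, from -0.17 to 0.14 in KO and from 0.04 to 0.21 in WT, with 0.14 in KO4 and -0.39 in WT2.

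With each library's trend removed as an offset, the log2 fold changes kept their signs and were smaller, at 0.58 (SE 0.12) for Nfia, 0.29 (SE 0.13) for Nfib, -0.30 (SE 0.15) for Nfic and -0.49 (SE 0.11) for Nfix. On this scale Nfia was at 852 ± 155 CPM in KO and 570 ± 73.7 CPM in WT, and Nfix at 75.0 ± 11.3 CPM in KO and 105 ± 9.39 CPM in WT (SD, n = 5 each). The 5 KO values of Nfix, from 60.5 to 88.4 CPM, then all lay below the 5 WT values, from 94.0 to 117 CPM, which 1.12% of genes showed on this scale (0.87% had KO above WT, and 1.99% were separated either way). Nfia, Nfib and Nfic still overlapped. For Nfix and Nfic the marked libraries kept the opposite order, at 114 and 44.5 CPM in KO4 and 38.0 and 23.9 CPM in WT2, while for Nfia and Nfib they then had the order of the group means, at 1109 against 791 CPM and 4482 against 3953 CPM in KO4 against WT2. In the fit to all 12 libraries with the trend removed, Nfia was at 0.56 (SE 0.14), Nfib at 0.27 (SE 0.13), Nfic at -0.11 (SE 0.17) and Nfix at -0.21 (SE 0.21).

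**Figure D3:**
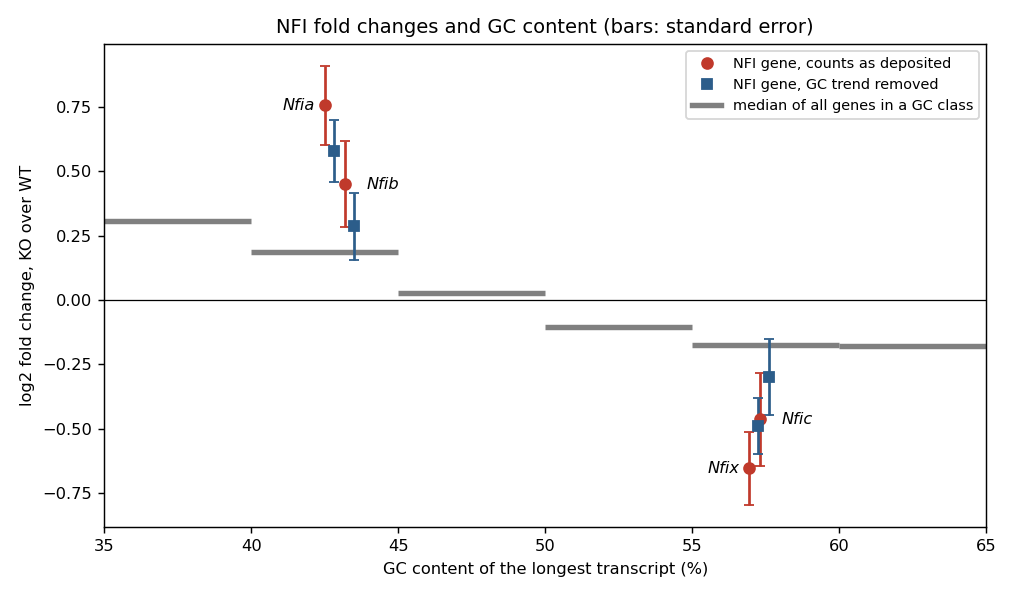
Log2 fold change KO over WT (with standard error) of the 4 NFI genes against the GC content of their longest transcript, from the counts as deposited (circles) and with each library's GC trend removed (squares), drawn slightly apart. Grey lines give the median over all genes in each class of GC content, the outer classes being all genes under 40% and from 60% up; the lines were taken from the counts as deposited and run from 0.31 to -0.18.

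The balance within the family can be read without any scaling between libraries, since a ratio of members in a library does not depend on its depth. The ratio of Nfia to Nfix in CPM was 17.8 in KO3, 16.4 in KO8, 15.7 in KO2, 8.50 in KO5 and 7.42 in KO6. It was 6.33 in WT3, 5.88 in WT5, 4.27 in WT1, 4.16 in WT7 and 3.22 in WT6. All 5 KO ratios were above all 5 WT ratios, and the mean difference was 1.42 log2 units. The marked libraries had 7.96 in KO4 and 35 in WT2, and with these included the difference was 0.82 log2 units. With the GC trend removed the ratio was 7.46 to 14 in KO and 4.28 to 6.72 in WT, with 9.73 in KO4 and 20.8 in WT2. Since the pair was picked as the ends of a known pattern, its separation is a description only.

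**Figure D4:**
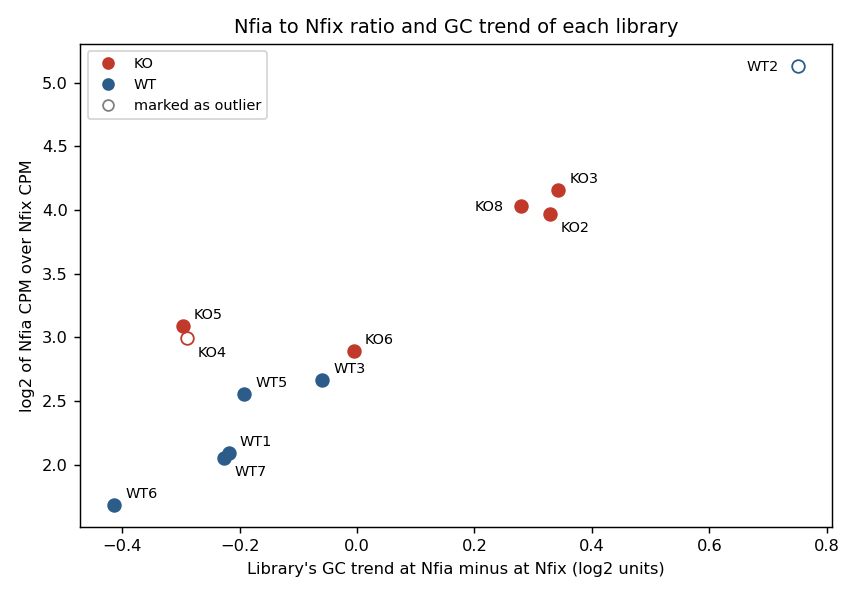
Log2 ratio of Nfia CPM to Nfix CPM in each library against the difference in the library's GC trend between the GC contents of the same 2 genes (log2 units); filled circles are compared libraries and open circles KO4 and WT2. KO2, KO3 and KO8 lie to the right of and above KO5 and KO6, WT2 lies at the top right, and KO5 and KO4 lie above the WT libraries of a like trend.

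In shares of family TPM, Nfib made up 75.6 ± 4.45% in KO and 75.7 ± 3.14% in WT (SD, n = 5 each). Nfia made up 20.6 ± 3.42% in KO and 16.7 ± 1.67% in WT. Nfix made up 2.61 ± 1.13% in KO and 5.49 ± 1.56% in WT, and Nfic 1.21 ± 0.634% in KO and 2.21 ± 0.623% in WT. The family as a whole summed to 1007 ± 185 TPM in KO and 782 ± 115 TPM in WT, with overlapping ranges of 826 to 1265 TPM in KO and 670 to 944 TPM in WT.

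Across the 10 compared libraries of both groups the members varied in the same pairs. Pearson's r of log2 CPM over the 10 libraries was 0.79 for Nfia with Nfib and 0.89 for Nfic with Nfix, and it lay between -0.88 and -0.60 for the 4 pairs that cross from one side to the other. With the GC trend removed these were 0.64, 0.79 and -0.79 to -0.30. Each r pools KO and WT, so the group difference by which the family was chosen enters it, and no r within a group was computed. The libraries also share their depth, scaling and GC trend over all genes, so these values describe the libraries and carry no test.

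Outside the family, the genes most like each member over the 10 libraries were found by the same r, again over KO and WT together. For Nfia they were Ntm, a neuronal adhesion molecule (r = 0.987), Tshz1, a zinc finger transcription factor (0.985), and St13, a cochaperone of Hsp70 (0.966). For Nfib they were Tsc22d2 (0.992), Mtss1, a membrane and actin binding protein (0.986), and Gas2l3, a cytoskeletal linker (0.985). For Nfic they were Rcn3, a calcium binding protein of the endoplasmic reticulum (0.982), Scaf1 (0.974) and the translation initiation factor subunit Eif3c (0.972). For Nfix they were the ubiquitin activating enzyme Uba1 (0.997), the oxysterol binding protein relative Osbpl2 (0.985) and the proton pump subunit Atp6v0a1 (0.983). With the GC trend removed St13 had an r of 0.566 and the other 11 an r of at least 0.921, but only 5 of the 12 genes stayed among the first 3 of their member. With all 12 libraries 4 of them stayed there, and by Spearman's rho 4.

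Of genes that NFI proteins are known to regulate in granule neurons, too few were tested for a count of calls to be read. Of 7 such genes 4 passed the filter and 0 were called by edgeR or DESeq2. EdgeR called 0.0223% of all genes, and DESeq2 4.35% of the genes to which it gave an adjusted p. The same shares are the background for the lists that follow. Of the 4 genes, 2 had an unadjusted p under 0.05, 1 in each direction, with a median log2 fold change of 0.01 (0.001 over all genes). Without a filter on low counts Etv1 was called as higher and Cntn2 as lower, and without KO5 Etv1 as higher. The late receptor subunit gene Gabra6, the standard marker of mature granule neurons, had 7 reads in all over the 5 compared KO libraries and 0 over the 5 WT libraries, and 0 in KO4 and WT2. Grin2c, a late NMDA receptor subunit gene, had 0 to 20 reads per KO library and 8 to 24 per WT library, with 27 in KO4 and 6 in WT2. Wnt7a, a secreted signal for mossy fibre terminals, had 0 to 8 reads per KO library and 1 to 6 per WT library, with 6 in KO4 and 2 in WT2. Of the earlier ones, the axonal adhesion molecule gene Cntn2 had 242 ± 62.5 CPM in KO and 313 ± 32.8 CPM in WT (adjusted p = 0.181). Etv1, a transcription factor of maturing granule neurons, had 16.9 ± 4.02 CPM in KO and 11.3 ± 3.33 CPM in WT (adjusted p = 0.150). The ephrin receptor gene Ephb1 had 51.4 ± 7.91 CPM in KO and 46.0 ± 11.4 CPM in WT, and the N-cadherin gene Cdh2 50.9 ± 5.75 CPM in KO and 55.7 ± 6.80 CPM in WT, with adjusted p of 0.578 and 0.520 (SD, n = 5 each throughout).

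Of glial genes that NFI proteins are known to bind or activate, 8 were listed and all 8 passed the filter. Against the same shares, 0 were called by edgeR or DESeq2, and nothing is read from this count. An unadjusted p under 0.05 was reached by 1 gene, and the list had a median log2 fold change of 0.07. That gene was Fabp7, the brain fatty acid binding protein gene of radial and Bergmann glia, at 688 ± 140 CPM in KO and 513 ± 108 CPM in WT (adjusted p = 0.158), with 501 CPM in KO4 and 1519 CPM in WT2. Fabp7 was called as higher without a filter or without KO5. Gfap, the astrocyte filament gene, was at 20.7 ± 9.01 CPM in KO and 28.7 ± 11.3 CPM in WT, and the glutamate transporter gene Slc1a3 at 212 ± 31.2 CPM in KO and 181 ± 46.6 CPM in WT. The water channel gene Aqp4 was at 74.9 ± 28.4 CPM in KO and 53.6 ± 18.8 CPM in WT. Apcdd1, Mmd2 and Zcchc24, which act downstream of Sox9 and NFIA in spinal cord glia, were at 21.1, 55.7 and 16.6 CPM in KO and 27.3, 54.9 and 15.5 CPM in WT.

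Among progenitor genes linked to NFI in the forebrain, 0 of 4 were called by edgeR (0.0223% of all genes). DESeq2 called 1 of them (4.35% of the genes to which it gave an adjusted p). At an unadjusted p under 0.05, 2 were higher in KO. Sox9, which induces Nfia in glial precursors and is itself reported as repressed by NFIX, was at 80.4 ± 11.1 CPM in KO and 53.2 ± 8.98 CPM in WT (log2 fold change 0.60, SE 0.13, edgeR adjusted p = 0.124), and it was the gene called by DESeq2. The Notch target Hes1 was at 5.75 ± 1.49 CPM in KO and 3.76 ± 1.14 CPM in WT (adjusted p = 0.199). The Polycomb methyltransferase gene Ezh2 stood at 219 ± 7.04 CPM in KO and 222 ± 6.74 CPM in WT, and the spindle orientation gene Insc at 50.1 ± 9.97 CPM in KO and 54.6 ± 5.02 CPM in WT.

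Of 8 factors that act with or upstream of NFI, Skil and Sox9 included, 0 were called by edgeR (0.0223% of all genes). DESeq2, which called 4.35% of the genes to which it gave an adjusted p, called 2 of them, Sox9 as higher and Skil as lower. At an unadjusted p under 0.05, 3 were higher and 1 lower, with a median log2 fold change of 0.22. Pax6, a factor of the granule lineage, was at 619 ± 81.4 CPM in KO and 491 ± 54.9 CPM in WT (adjusted p = 0.141). Ski was at 39.5 ± 4.27 CPM in KO and 46.1 ± 9.68 CPM in WT (adjusted p = 0.345). Zeb1, a repressor that holds precursors in the layer, was at 64.7 ± 6.07 CPM in KO and 63.6 ± 4.54 CPM in WT. Rest, which silences neuronal genes, and Nfatc4, a calcium-regulated factor, were low, at 6.74 and 5.91 CPM in KO and 5.08 and 5.47 CPM in WT.

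Of 12 precursor genes 0 were called in edgeR, where 0.0223% of all genes were. By unadjusted p 2 lay higher and 1 lower in KO, and the median log2 fold change was 0.03. The 4 with the smallest p were Mycn (335 CPM in KO, 263 in WT), Barhl1 (117 in KO, 159 in WT), Pax6 and Zic1 (983 in KO, 801 in WT). Of 14 maturing neuron genes 13 passed the filter and 0 were called. By unadjusted p 5 lay higher and 1 lower, and the median was 0.17. The 4 with the smallest p were Snap25 (69.2 CPM in KO, 47.9 in WT), Cbln1 (213 in KO, 271 in WT), Cntn1 (104 in KO, 66.3 in WT) and Syt1 (38.3 in KO, 29.5 in WT). Snap25, Cntn1 and Syt1, higher in KO, had a transcript GC content of 38.7%, 43.6% and 45.8%. Cbln1 and Barhl1, lower in KO, had 56.25% and 60.6%. Mycn, Pax6 and Zic1, higher in KO, had 54.8%, 49.3% and 45.7%. The GC trend was not removed from these values, and its part in them was not tested.

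NFI genes are also expressed by other cells that the cut can hold. In edgeR 0 markers of the 8 lists of such cells were called, where 0.0223% of all genes were, so the 0 says little about these cells. The summed level of the 11 Bergmann glia and astrocyte markers was 843 to 1302 CPM in KO and 620 to 1036 CPM in WT, with 902 CPM in KO4 and 2074 CPM in WT2; none was at 0 in all libraries. The 9 Purkinje cell markers summed to 403 to 660 CPM in KO and 331 to 442 CPM in WT, with 381 CPM in KO4 and 801 CPM in WT2. All 7 of those that passed the filter had a positive log2 fold change, 4 at an unadjusted p under 0.05, a level that 21.8% of all genes reached. These 4 were Calb1, Car8, Foxp2 and Itpr1, with a transcript GC content of 36.8%, 42.3%, 42.6% and 49.5%. Of all genes under 40% GC, 87.9% had a higher fitted level in KO. That share was 78.4% from 40% to 45% and 54.5% from 45% to 50%. The GC trend was not removed from the marker values, and its part in them was not tested. The 8 oligodendrocyte lineage markers summed to 293 to 314 CPM in KO and 302 to 370 CPM in WT, with 3 of the 6 that passed the filter lower at that level, and the defining genes Sox10 and Mog were at 0 to 0.864 and 0 to 0.487 CPM in KO and 0 to 1.64 and 0 to 0.434 CPM in WT. Inhibitory interneuron markers summed to 11.7 to 37.4 CPM in KO and 15.8 to 22.5 CPM in WT, endothelial markers to 163 to 297 CPM in KO and 183 to 248 CPM in WT, and mural and meningeal markers to 272 to 400 CPM in KO and 217 to 368 CPM in WT. Microglial markers summed to 18.0 to 31.2 CPM in KO and 18.6 to 22.9 CPM in WT, and red blood cell genes to 351 to 606 CPM in KO and 306 to 568 CPM in WT. The part of these cells in the NFI values was not tested.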

How the data were processed

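Total RNA of the laser-captured layer was sequenced in 12 libraries. The authors deposited whole-number read counts per gene, not normalized, 1 table per library. Build mm10 and the programs HTSeq 0.6.1, STAR 2.5.3a, cutadapt 1.16 and DESeq2 are named in the submitters' processing notes; their settings, the strand setting of the counting included, and the annotation release are not given in the sources used. Of all records tallied in the counting, 64.4% to 67.6% per library were set aside as not uniquely aligned. Of uniquely placed reads 10.8% to 14.7% lay in no annotated feature and 6.81% to 8.13% were ambiguous between genes. Summary rows stayed out of library sizes. Of 53379 identifiers 53274 matched GENCODE M21.

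Groups and numbers came from the titles. No 2 libraries of a group were duplicates (chi-square over degrees of freedom 6.51 to 94.1 in 30 pairs). The comparison used filterByExpr (minimum count 10), TMM factors and the robust quasi-likelihood test of edgeR (4.0.16, under R 4.3.3 with limma 3.58.1), Benjamini-Hochberg adjusted over 13442 genes and called under 0.05. SEs come from that test. CPM uses filter and TMM factors of all 12 libraries. The GC trend is a spline (5 degrees of freedom) of log2 CPM (prior count 2) on longest-transcript GC. The exact permutation test used log2 of CPM plus 1. DESeq2 1.42.0 and voom were alternatives.

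The family, its linked gene lists, the marker lists and the tests were chosen with earlier results of these data known. Named genes are the members, Skil, every gene of the 4 NFI-linked lists and the 4 smallest p of each granule list. Further named are Atoh1, the low maturing markers Cbln3 and Calb2, and the 4 Purkinje markers at an unadjusted p under 0.05. The oligodendrocyte lineage markers of highest level or under the filter are named as well. Per member the 3 genes of highest Pearson r are named, with members and provisional names passed over. No set test and no p over a list were computed.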

Additional observations from a re-analysis of the deposited data

Results flagged for a closer look

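Of 96 groups of 5 libraries examined, 2 had a library whose gap to its nearest neighbour was over 0.710 of the group's range; chance alone flags about 1 in 20 groups. None was a value of an NFI gene. Gabra6 was at 0.584 CPM in KO2, from 6 reads, while the other 4 KO libraries had 0 to 0.0934 CPM. Grin2c was at 1.57 CPM in WT7, while the other 4 WT libraries had 0.867 to 0.990 CPM.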

How the results depend on the processing

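No log2 fold change of an NFI gene changed sign under any of 14 alternatives or on leaving out any of 10 libraries. The family was chosen on these same libraries, so a kept sign is no support. Some values were within their SE of 0, such as Nfic at -0.11 (SE 0.17) in 12 libraries with the GC trend removed. Nfib was at 0.028 (SE 0.17) with a block on the replicate number and the GC trend removed. Leaving out each compared library in turn gave 0.67 to 0.87 for Nfia, 0.37 to 0.56 for Nfib, -0.68 to -0.33 for Nfic and -0.78 to -0.57 for Nfix, and 1.28 to 1.60 for the log2 difference in the Nfia to Nfix ratio. Skil ranged from -0.78 to -0.59, and its adjusted p over all alternatives from 0.000259 to 0.999. The genes called as higher ranged from 0 to 1662 and as lower from 0 to 1440, the highest counts being those without KO5; without KO2 or WT7, 0 were called in either direction. Without KO5, where 22.9% of all genes were called, the calls in the NFI-linked lists, otherwise 0, also rose. They reached 1 granule gene, 1 glial gene, 1 progenitor gene and 3 partners as higher and 1 partner, Skil, as lower. Mean levels in KO ranged from 193 to 225 TPM for Nfia, 713 to 811 for Nfib, 9.74 to 12.8 for Nfic and 22.3 to 26.8 for Nfix, and in WT from 125 to 135, 556 to 624, 15.8 to 17.4 and 39.7 to 43.4. With the longest transcript as length, Nfib was at 981 TPM in KO and 761 in WT and Nfic at 13.9 in WT.

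With all 12 libraries 1 gene was called as higher and 0 as lower, Nfix was at -0.30 and the Nfia to Nfix difference at 0.82. With WT2 alone kept in, 1 was called as higher, and with KO4 alone kept in, 1 as higher and 0 as lower. Counting KO2 as WT left 0 and 0 and put Nfia at 0.43 and the Nfia to Nfix difference at 1.04. DESeq2 called 235 as higher and 214 as lower, Skil among them (-0.70, adjusted p = 0.0107), 1 progenitor gene and 1 partner as higher and 1 partner as lower. Voom on 12 libraries called 1 progenitor gene and 1 partner as higher, Sox9 in both lists. Without a filter 634 and 331 were called, Skil passed at -0.70, and 1 granule, 1 glial and 1 progenitor gene and 2 partners were higher and 1 granule gene and 1 partner lower. With the GC trend removed 2 were called as lower, and Skil passed at -0.93 as the 1 partner called. With that in 12 libraries 1 was called as higher and 2 as lower, Nfic was at -0.11, Nfix at -0.21 and the ratio difference at 0.70, and Skil passed at -1.04 as the 1 partner called. The cause of these shifts was not tested.

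The libraries share only a number across groups: deviations of same-numbered libraries correlated at 0.112, -0.046 and 0.086 for numbers 3, 5 and 6. Among the compared libraries only these numbers occur in both groups, so a fit with the replicate number as a block rests on them alone. In that fit 0 genes were called in either direction, Nfia was at 0.58, Nfib at 0.13, Nfic at -0.29 and Nfix at -0.49. With the GC trend also removed 0 and 0 were called, with Nfia at 0.47, Nfib at 0.028, Nfic at -0.17 and Nfix at -0.37. The remaining compared libraries add nothing to the group difference in these fits, and no conclusion is drawn from the 0 calls. Gabra6, Grin2c and Wnt7a had at most 27 reads in any library and did not pass the filter over the 10 compared libraries, so no difference in them was tested there; with KO4 kept in, with KO2 counted as WT or without some single libraries, 5 of the 7 granule genes were tested.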
